A study of Mus musculus with 6 samples.

Results

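The genes described here encode cytokine receptor chains and the parts of the JAK-STAT pathway that carries most of their signals. They were chosen by symbol from the deposited count table: interleukin receptor genes, the type I interferon receptor genes, the Janus kinases Jak1, Jak2, Jak3 and Tyk2, Stat3 to Stat6, the Socs, Cish and Pias genes, Il2rg, Il6st, Csf2rb and Csf2rb2. Il4ra, Il21r and Il12rb1 were left out by the rule. It took 58 of the 15861 genes in the table, and 43 of the 58 had enough counts to be tested.

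RNA was read from germinal centre B cells, sorted as B220+ GL7+ FAS+, of C57BL/6 mice. The WT group held 3 mice of genotype Lsd1 f/f, with both Lsd1 alleles floxed and no Cre. The KO group held 3 mice with the same floxed alleles and 1 Cgamma-cre allele (Cgamma-cre+/-; Lsd1 f/f). The series design calls the animals littermates, and each library is 1 mouse. The sources used here do not give the age, sex or immunisation of the mice, or the cells in which this Cre acts. A control that carries Cre but no floxed allele was not analysed here, so Cre and the deletion cannot be told apart. Lsd1 is another name of Kdm1a, which encodes a histone H3 demethylase that works in repressor complexes.

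Cytokines signal by bringing together 2 or more receptor chains whose inner tails hold Janus kinases. The kinases phosphorylate the receptor and then STAT proteins, which enter the nucleus and switch on target genes. Among those targets are SOCS genes and Cish, whose proteins feed back on the receptor and the kinases, while PIAS proteins act on STATs in the nucleus. Germinal centre B cells depend on such signals from T helper cells, chiefly interleukin 21 and interleukin 4. Receptors of the IL-1 and IL-17 families, which the rule also takes, signal through other adaptors and not through JAK-STAT.

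The WT libraries held 3.79, 5.52 and 3.39 M counts and the KO libraries 12.3, 14.3 and 13.1 M, so depth and genotype cannot be told apart. Levels are in CPM, counts scaled to a common library size. The 58 genes summed to between 1897 and 2193 CPM per WT library and between 2161 and 2570 CPM per KO library. Markers of B cells summed to 7559 to 10728 CPM and markers of germinal centre B cells to 3964 to 4742 CPM over the 6 libraries, with all 8 and all 10 of the markers in the table. In KO, 6 of 8 B cell markers (median log2 fold change -0.27) and 8 of 9 tested germinal centre markers (median -0.21) were below 0, and none passed by edgeR. Mef2b, a germinal centre marker, had 1 count in WT and 8 in KO. Kdm1a itself stood at 134, 85.1 and 92.4 CPM in WT and 81.8, 33.0 and 21.8 CPM in KO (log2 fold change -1.19, SE 0.50, adjusted p = 0.393 by edgeR). The library labelled KO 1 lay nearer to WT than to the other KO libraries, and without it Kdm1a passed (log2 fold change -1.93, adjusted p = 0.0169). Each result below is given with that library, and for some genes also without it.

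The sequences that bear on the pathway are shown first. Windows around the transcription start, with 250 bases before it and 50 from it on, were taken from RefSeq (GRCm38.p6, the assembly of mm10) for the 45 of 58 genes that matched by symbol. Each was searched for TTCNNNGAA, the palindromic site that most STAT proteins bind, and for TTCNNNNGAA, the wider spacing that STAT6 favours. Both motifs read alike on the 2 strands, so 1 search covers both, and no TTC can start a match to both spacings with the same GAA. The first was found in 8.30% of all 32851 promoter windows and in 9 of the 57 windows of these genes (15.8%). The second was found in 6.95% of all windows and in 6 of 57 (10.5%). Windows of 1 gene can overlap and share a match. Counted by gene, the first motif was found for 9 of 45 (20.0%) against 9.55% of all genes, and the second for 4 of 45 (8.89%) against 8.01%, near the background. Shown are the windows of Cish, the classic STAT5 target gene, of the neighbouring genes Il18r1 and Il18rap, and of Stat4, with motif matches in capitals. The Il18r1 and Il18rap windows are shown because these genes had no count in any WT library and counts in every KO library. Il17rd had that pattern too, on 8, 2 and 2 counts in KO, but its window, which held neither motif, is not shown. The Stat4 window is shown because Stat4 had the smallest p among the 43 tested genes. The positions are chr9:107296409-107296708 for Cish, chr1:40465302-40465601 and chr1:40465756-40466055 for the upstream and downstream windows of Il18r1, chr1:40515112-40515411 for Il18rap and chr1:51986898-51987197 for the first window of Stat4, all on the plus strand.
Cish: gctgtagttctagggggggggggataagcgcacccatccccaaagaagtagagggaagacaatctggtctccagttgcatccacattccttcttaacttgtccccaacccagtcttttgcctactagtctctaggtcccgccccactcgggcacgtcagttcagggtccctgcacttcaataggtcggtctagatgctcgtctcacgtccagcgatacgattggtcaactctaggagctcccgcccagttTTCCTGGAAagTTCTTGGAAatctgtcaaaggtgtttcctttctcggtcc
Il18r1, upstream window: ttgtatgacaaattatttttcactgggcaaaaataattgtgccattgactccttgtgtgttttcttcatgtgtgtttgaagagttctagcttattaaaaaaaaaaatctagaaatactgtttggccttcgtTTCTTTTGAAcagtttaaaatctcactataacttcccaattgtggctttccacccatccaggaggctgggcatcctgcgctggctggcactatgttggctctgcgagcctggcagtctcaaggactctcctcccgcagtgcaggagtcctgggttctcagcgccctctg
Il18r1, downstream window: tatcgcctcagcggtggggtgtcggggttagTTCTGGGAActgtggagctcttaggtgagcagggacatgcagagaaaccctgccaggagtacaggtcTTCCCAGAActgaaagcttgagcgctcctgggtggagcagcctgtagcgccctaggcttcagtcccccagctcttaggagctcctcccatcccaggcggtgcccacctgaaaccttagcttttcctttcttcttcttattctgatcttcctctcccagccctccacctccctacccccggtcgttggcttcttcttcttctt
Il18rap: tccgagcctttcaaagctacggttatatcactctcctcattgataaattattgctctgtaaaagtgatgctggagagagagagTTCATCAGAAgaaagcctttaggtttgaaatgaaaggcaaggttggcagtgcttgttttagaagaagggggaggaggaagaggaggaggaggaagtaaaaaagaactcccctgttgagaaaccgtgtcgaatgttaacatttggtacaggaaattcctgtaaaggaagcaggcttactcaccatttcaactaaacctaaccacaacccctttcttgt
Stat4, first window: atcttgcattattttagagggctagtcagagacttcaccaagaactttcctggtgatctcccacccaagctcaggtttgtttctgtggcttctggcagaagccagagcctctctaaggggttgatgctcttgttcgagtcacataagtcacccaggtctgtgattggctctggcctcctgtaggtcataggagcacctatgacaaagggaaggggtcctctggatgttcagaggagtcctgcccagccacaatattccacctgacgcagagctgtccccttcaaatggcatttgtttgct
The Cish window held 2 matches to TTCNNNGAA next to each other, the first at the start site itself. The downstream window of Il18r1 held 2 more, while its upstream window and that of Il18rap held 1 match each to TTCNNNNGAA. Neither motif was found in the Stat4 window shown or in its second one, nor in the windows of Il1rl1 and Il17rd, which also had no count in WT. Il7r, with no count in WT and 1 in KO, had 1 match to TTCNNNGAA in its window. A match is a string of letters and does not show that a STAT protein binds there. Il2rb, Il27ra, Csf2rb, Il10ra, Il10rb, Il17ra, Il22ra2, Socs2, Socs5, Socs6, Socs7, Pias2 and Pias4 had no entry.

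The comparison asks which of these genes differ in RNA level between KO and WT. None of the 43 tested genes passed in either direction at an adjusted p under 0.05 over all 10926 tested genes (edgeR quasi-likelihood test). In bulk RNA, more cells that express a gene and more RNA per cell cannot be told apart. Over all tested genes 0.0824% passed, that is 8 higher and 1 lower. By DESeq2 3 of the 43 passed, Stat4, Il2rb and Il18rap, all higher in KO, and by limma-voom 0 passed. Of all tested genes, 1.12% passed by DESeq2 and 0.0183% by limma-voom. At an unadjusted p under 0.05 (edgeR), 11 of the 43 were higher in KO (25.6%) and 0 were lower, against 7.1% and 5.5% of all tested genes. The groups did not overlap for 9 genes, all higher in KO (20.9%), against 10% of all tested genes higher and 7.94% lower. The 9 were Stat4, Il2rb, Il18rap, Il1r2, Socs2, Il6ra, Il2ra, Il10ra and Il1rap. Il18rap, Il1r2 and Socs2 are among both the 11 and the 9, with fewer than 3 WT libraries over the cutoff of the low-count filter. They needed KO libraries to be tested, so both counts, and the DESeq2 call of Il18rap, lean upward by that choice.

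Of the 43 genes, 32 had a log2 fold change above 0, and the median was 0.30 against 0.01 over all tested genes. It stayed at 0.30 with Il18rap, which is at 0 in WT, set to its lower bound. Without KO 1, 30 of 42 tested genes were above 0 (median 0.25). Naive, follicular and memory B cell markers moved the same way, while the 8 tested plasma cell markers split 5 above and 3 below 0 (median 0.08). The part of these cell states in the count was not tested. Of the naive and follicular B cell markers 7 of 7 tested were above 0 (median 1.21), with sums of 271, 466 and 332 CPM in WT and 657, 521 and 566 CPM in KO. Of the memory B cell markers 7 of 8 were above 0 (median 1.39), and Zbtb32 passed (adjusted p = 0.0349 by edgeR). The count is not evenly spread over expression levels. Of the 28 genes with a mean of at least 10 CPM, 18 were above 0 (median 0.19), where 48.6% of all genes of that level were (median -0.01). Of the 15 tested genes below 10 CPM, 14 were above 0 (median 0.94), where 60.2% of all genes of that level were (median 0.14). Among the 43, 9 had fewer than 3 WT libraries over the 1.12 CPM that the low-count filter asks for. They needed KO libraries to pass it, and their fold changes lean upward by that choice.

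**Figure D1:**
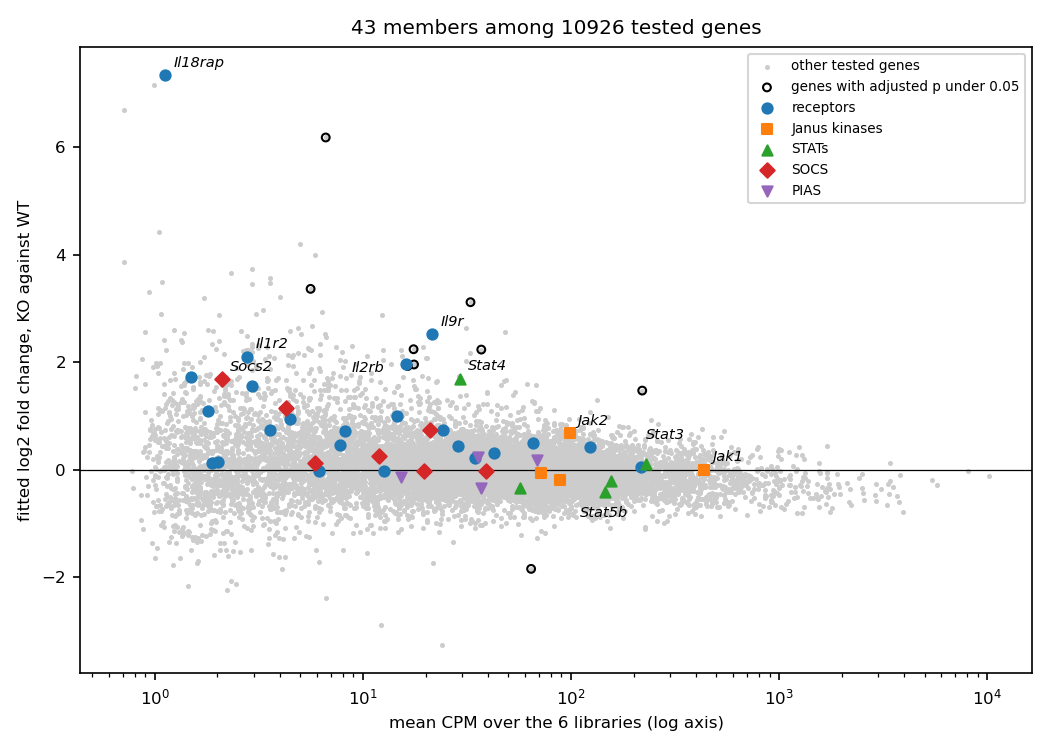
Fitted log2 fold change of KO against WT (vertical axis) against mean CPM over the 6 libraries (horizontal log axis) for all tested genes in grey, with the 43 genes described here as coloured symbols by role and the 9 genes with an adjusted p under 0.05 as open circles. None of the coloured symbols is circled, and the fitted value of Il18rap at the top rests on WT libraries that are all at 0 and is no bound.

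Il2rb encodes the beta chain shared by the interleukin 2 and interleukin 15 receptors (chromosome 15, 78479256 to 78495271, minus strand, mm10). Its level was 6.82, 3.51 and 9.65 CPM in WT and 28.7, 19.4 and 28.5 CPM in KO. Every KO library lay above the highest WT library, and KO 2 was the lowest of KO. The log2 fold change was 1.96 (SE 0.37, adjusted p = 0.0916 by edgeR). It ranged from 1.63 to 2.32 over 16 alternative fits and passed in 3 of them, with adjusted p from 0.00139 to 0.405. Without KO 1 it was 1.85 (adjusted p = 0.118).

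Its partner chains had other patterns over the libraries. Il2ra, the alpha chain that gives the interleukin 2 receptor its high affinity, stood at 1.31, 1.56 and 1.56 CPM in WT and 1.82, 5.29 and 6.00 CPM in KO, from 5 to 84 counts. KO 1 was close to WT, and the other KO libraries were well above it (log2 fold change 1.56, SE 0.57, adjusted p = 0.305 by edgeR). Il2rg, the common gamma chain used by the receptors for interleukins 2, 4, 7, 9, 15 and 21, stood at 110, 102 and 107 CPM in WT and 191, 107 and 128 CPM in KO. Only KO 1 was far from the WT values, and KO 2 lay among them. Its log2 fold change of 0.42 (SE 0.24) was 0.14 without KO 1. Il15ra, the interleukin 15 receptor alpha chain, had 9, 1 and 3 counts in WT and 35, 30 and 35 in KO, and on the CPM scale the groups overlapped. Il2rg shares 728 exon bases on its own strand with another annotated gene, so part of its reads may not be assigned to it.

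Csf2rb and Csf2rb2 encode near-identical beta chains, the first shared by the receptors for interleukin 3, interleukin 5 and GM-CSF and the second specific to interleukin 3. Reads of this pair can be assigned to either gene or to neither, so their counts are uncertain. Csf2rb stood at 22.3, 24.8 and 25.8 CPM in WT and 22.1, 38.8 and 38.4 CPM in KO. KO 1 was level with the lowest WT library, and the fold change of the group (log2 0.45, SE 0.26) came from KO 2 and KO 3. Csf2rb2 had 0, 3 and 5 counts in WT and 35, 7 and 51 in the deeper KO libraries, at means of 0.714 and 2.26 CPM with overlap.

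The alpha chains that pair with Csf2rb were present at low levels. Il3ra stood at 9.18, 11.3 and 17.7 CPM in WT and 14.6, 9.16 and 13.6 CPM in KO. The groups covered the same range (log2 fold change -0.02, SE 0.34). Il5ra, the interleukin 5 receptor alpha chain, had a log2 fold change of 0.45 (SE 0.43), with 5.23 CPM in KO 1 inside the WT range of 4.05 to 9.76 CPM. Il6st, the gp130 chain of the interleukin 6 family receptors, spanned 4.98 to 8.0 CPM among the WT libraries and 4.30 to 14.1 among the KO libraries.

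Il10rb, the second chain of the interleukin 10 receptor, stood at 20.2, 33.2 and 43.3 CPM in WT and 33.9, 26.6 and 51.3 CPM in KO. Ifnar2, a chain of the type I interferon receptor, stood at 11.3, 15 and 28.6 CPM in WT and 33.0, 16.8 and 41.4 CPM in KO. Within each group both genes had the same order of libraries as the summed macrophage and dendritic cell markers, which held 260, 1188 and 2231 CPM in WT and 242, 168 and 2695 CPM in KO. All 15 of those markers were in the table, and their part in the result was not tested. Without WT 3 and KO 3, the log2 fold change was 0.17 for Il10rb and 0.91 for Ifnar2, against 0.21 (SE 0.32) and 0.74 (SE 0.42) with all libraries. Ifnar2 and Il10rb lie side by side on chromosome 16 and share 315 and 569 exon bases with an annotated gene that spans both. Ifnar1, the other interferon receptor chain, had 44.6, 37.7 and 32.4 CPM in WT and 52.9, 38.7 and 49.8 CPM in KO, and its groups overlapped.

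Among the chains specific to 1 cytokine, Il10ra, the ligand-binding chain of the interleukin 10 receptor, was tightly grouped. It stood at 52.2, 50.8 and 61.3 CPM in WT and 72.0, 80.1 and 78.5 CPM in KO. All KO libraries exceeded all WT libraries, by a small step (log2 fold change 0.49, SE 0.20, adjusted p = 0.337 by edgeR) that ranged from 0.44 to 0.61 over 16 alternative fits. Il6ra, the interleukin 6 receptor, stood at 7.87, 9.96 and 11.2 CPM in WT and 12, 18.4 and 27.8 CPM in KO. The lowest KO library, KO 1, was just above the highest WT library, and the spread in KO was wide (log2 fold change 1.01, SE 0.34, adjusted p = 0.288 by edgeR).

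Il9r, the interleukin 9 receptor and a gene known from memory B cells, was high in a single library. It stood at 9.97, 3.32 and 5.91 CPM in WT and at 90.9, 8.32 and 10.1 CPM in KO, where KO 1 alone held 1199 counts. KO 1 was 9.85 times the mean of the other KO libraries, while those overlapped WT. The log2 fold change of 2.52 (SE 1.25, adjusted p = 0.491 by edgeR) was 0.53 without KO 1. Il27ra, the interleukin 27 receptor, stood at 6.56, 5.08 and 7.16 CPM in WT and 12.1, 3.31 and 2.93 CPM in KO, so that KO 1 lay above and the other KO libraries below every WT library. Its log2 fold change was -0.03 (SE 0.55) with all libraries and -1.01 without KO 1 (adjusted p = 0.64 by edgeR). Memory B cell genes totalled 136, 192 and 151 CPM in WT and 441, 242 and 314 CPM in KO, highest in KO 1, with 8 of 8 markers in the table. Their part in the Il9r and Il27ra values was not tested.

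The remaining specific chains were close to the limit of detection. Il13ra1 had 1, 28 and 7 counts in WT and 78, 19 and 90 in KO, and Il11ra1 had 3 to 10 counts in WT and 18 to 32 in KO. The KO libraries were deeper, so counts do not compare across the groups. Mean levels were 2.64 CPM in WT and 4.56 in KO for Il13ra1, and 1.82 and 1.95 CPM for Il11ra1, with overlap for both. Il12rb2 had 1, 3 and 1 counts in WT and 11, 4 and 20 in KO, at means of 0.386 and 0.848 CPM with overlap. It shares 1519 exon bases with Serbp1 on the other strand. Il20rb had 2 to 4 counts in WT and 11 to 23 in KO, at means of 0.730 and 1.32 CPM with overlap. Il23r, Il22ra1 and Il22ra2 had at most 2 counts in any WT library, and at most 9, 1 and 12 in any KO library. Il7r, the interleukin 7 receptor of early B cells and T cells, had 1 count in all 6 libraries together. A library with 0 counts allows up to 3, which is 0.543 to 0.885 CPM for a WT library and 0.209 to 0.243 CPM for a KO library (counting error only).

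In the IL-1 receptor family, 2 genes had counts in every KO library and in no WT library. Il18r1 and Il18rap encode the 2 chains of the interleukin 18 receptor and are neighbours on chromosome 1. Il18rap (40515362 to 40551705, plus strand) had 0 counts in each WT library and 30, 31 and 32 counts in KO. The KO libraries were nearly equal, at 2.28, 2.18 and 2.28 CPM. Pooled over each group, its level was at least 9.90-fold higher in KO, taking 3 counts over the 3 WT libraries as the floor, and at least 9.72-fold higher without KO 1. By edgeR the adjusted p was 0.0916. Thinned at random to the 3390805 counts of the smallest library, the KO libraries still held 8, 11 and 10 counts.

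Il18r1 (40465552 to 40500854, plus strand) had 0 counts in each WT library and 153, 4 and 14 in KO. Most of them came from KO 1, and the gene missed the low-count filter. The level pooled over KO was at least 18.2-fold higher with KO 1 and at least 2.78-fold higher without it. Il1rl1, the interleukin 33 receptor, had 0 counts in WT and 17, 0 and 1 in KO, so it was seen in KO 1 almost alone. T cells and natural killer cells also express both interleukin 18 receptor chains. T cell markers came to a total of 215, 184 and 258 CPM in WT and 161, 191 and 219 CPM in KO, with 12 of 13 in the table and Lck the main contributor. Natural killer cell markers totalled 0.528, 4.53 and 8.26 CPM in WT and 3.25, 2.72 and 6.55 CPM in KO, with 5 of 6 in the table. Of the 6 tested T cell markers 3 were above and 3 below 0 (median log2 fold change -0.14). Cd28 stood at 1.55 (SE 0.85) and Zap70 at 1.33 (SE 0.76), while Lat stood at -1.37 (SE 0.64) and Lck at -0.35 (SE 0.21). Cd3d, a defining T cell gene, had a mean of 0.0651 CPM in WT and 0.592 CPM in KO, and Cd3g 0.191 and 0.498 CPM. Cd8a and Bcl11b had 0 counts in WT and at most 1 count in any KO library. Ncr1, which defines natural killer cells, had 6 counts in KO 2 and 0 elsewhere. The part of such cells in the interleukin 18 receptor counts was not tested.

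Il1r2, the decoy receptor that binds interleukin 1 without signalling, stood at 1.57, 1.17 and 0.311 CPM in WT and 3.11, 5.15 and 5.35 CPM in KO. The groups did not overlap, on 1 to 6 counts per WT library (log2 fold change 2.10, SE 0.59, adjusted p = 0.23 by edgeR). Il1rap, the accessory chain shared by this family, stood at 2.36, 4.29 and 2.49 CPM in WT and 6.14, 5.36 and 6.28 CPM in KO (log2 fold change 0.94, SE 0.42). Il1r1, the signalling receptor, covered the same range in both groups, 0.787 to 2.80 CPM for WT libraries and 0.91 to 3.21 for KO libraries. Il1rn, the soluble antagonist, had 14, 1 and 2 counts in WT and 4, 2 and 11 in KO, and Il1rl2 had 0 to 4 counts in WT and 15 to 22 in KO.

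Of the IL-17 receptor family only Il17ra was abundant. It stood at 288, 188 and 166 CPM in WT and at 219, 222 and 222 CPM in KO, all within the WT range (log2 fold change 0.04, SE 0.23). Il17rb, Il17rc, Il17rd and Il17re had at most 3 counts in any WT library and at most 8 in any KO library.

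**Figure D2:**
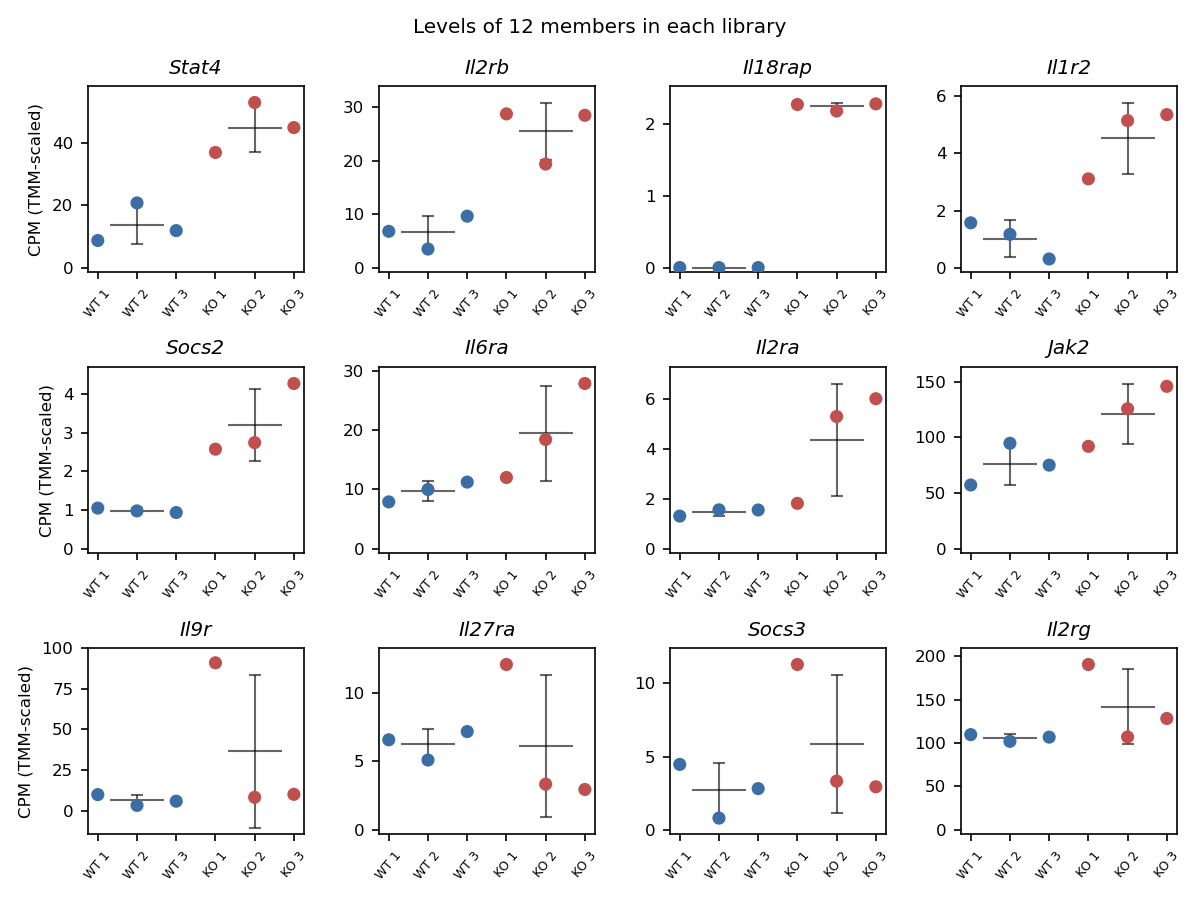
TMM-scaled CPM (vertical axes, which differ between genes) in each of the 6 libraries for 12 of the genes, WT in blue and KO in red, with horizontal black bars for the group mean and vertical ones for the SD (n = 3). Stat4, Il2rb, Il18rap, Il1r2 and Socs2 show all KO points above all WT points, and Il9r, Il27ra, Socs3 and Il2rg show KO 1 above the other KO libraries.

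Per kilobase of exon, which allows levels of different genes to be set side by side, the Janus kinase gene Jak1 ranked first of the 58 and Il2rg second. Jak1 stood at 60.0 ± 10.5 CPM per kb in WT and 60.0 ± 3.17 in KO, and Il2rg at 44.4 ± 1.64 and 59.5 ± 18.2 (SD, n = 3). Stat6, Stat5b, Il17ra and Stat3 followed, with means of 35.4, 26.2, 25.1 and 24 CPM per kb over the 6 libraries. Over the 6 libraries Jak1 ranged from 49.8 to 70.8 and Il2rg from 42.7 to 79.9 CPM per kb, so their order was not settled. The ranges of the next neighbours in the order overlapped as well, while Stat6 (30.9 to 43.6 CPM per kb) lay above Stat3 (20.2 to 27.0 CPM per kb) throughout.

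Jak1, which serves interferon receptors and the common gamma and gp130 receptors, stood at 360, 511 and 429 CPM in WT and 409, 455 and 436 CPM in KO. The KO values lay inside the WT range (log2 fold change 0.00, SE 0.20). Jak2, the kinase of the interleukin 3, interleukin 5 and interferon gamma receptors, stood at 57.2, 94.7 and 75.0 CPM in WT and 91.9, 126 and 146 CPM in KO. KO 2 and KO 3 were above all WT libraries and KO 1 just below the highest of them (log2 fold change 0.68, SE 0.25, adjusted p = 0.305 by edgeR). Jak3, which binds only the common gamma chain, had 78.2, 58.2 and 82.8 CPM in WT and 93.0, 51.4 and 65.1 CPM in KO. KO 1 was the highest and KO 2 the lowest of the 6 (log2 fold change -0.06, SE 0.25). Jak3 shares 404 exon bases on its own strand with Insl3, so part of its reads may not be assigned to it. The same limit holds for its level per kilobase. Tyk2, the partner kinase at interferon and interleukin 10 and 12 receptors, ranged from 83.2 to 100 CPM in WT and from 72.5 to 91.7 CPM in KO (log2 fold change -0.19, SE 0.20).

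Jak1 made up 58.3 ± 4.04% of the summed per-kilobase level of the 4 kinase genes in WT and 55.0 ± 2.93% in KO. The share of Jak2 was 12.6, 16.7 and 14.3% in WT and 17.5, 23.1 and 25.2% in KO, without overlap between the groups. Jak3 and Tyk2 held 13.6 ± 3.44% and 13.6 ± 2.70% in WT and 12 ± 4.07% and 11.0 ± 1.09% in KO (SD, n = 3).

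Stat4, which carries interleukin 12 and interferon signals in T and natural killer cells, had the smallest p of the 43 tested genes (chromosome 1, 51987148 to 52107189, plus strand, mm10). It stood at 8.66, 20.7 and 11.8 CPM in WT and at 36.9, 52.9 and 44.8 CPM in KO, from 33 to 750 counts. All KO libraries were above all WT libraries, and WT 2 was the highest of WT. The log2 fold change was 1.69 (SE 0.31, adjusted p = 0.0916 by edgeR), or 3.23-fold. Over 16 alternative fits it lay between 1.44 and 2.13 and passed in 5, with adjusted p from 0.00094 to 0.613. Without KO 1 it was 1.82 and passed (adjusted p = 0.0378 by edgeR). The summed T cell and natural killer cell markers given with Il18rap overlapped between the groups, and Lck was the main part of the T cell sum. Of the 6 tested T cell markers 3 were above and 3 below 0. Cd3d, too low to test, had 0, 1 and 0 counts in WT and 15, 5 and 4 in KO. Its CPM was higher in every KO library than in any WT library. However, KO 2 and KO 3 (0.352 and 0.286 CPM) lay below the 0.543 to 0.885 CPM that 3 counts make in a WT library. Lat and Lck were lower in every KO library than in any WT library. The part of such cells in the Stat4 values was not tested. Stat4 shares 1033 exon bases with an annotated non-coding transcript on its own strand.

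The other STAT genes lay much closer to each other across the groups. Stat5b, a mediator of interleukin 2 family signals, stood at 191, 137 and 170 CPM in WT and 87.0, 141 and 144 CPM in KO. Only KO 1 lay outside the WT range (log2 fold change -0.42, SE 0.24), and without it the value was -0.23. Stat5a, its close paralogue, stood at 68.2, 50.8 and 71.6 CPM in WT and 44.3, 49.4 and 56.1 CPM in KO (log2 fold change -0.34, SE 0.22), and KO 3 lay inside the WT range. Reads from stretches shared by Stat5a and Stat5b may be lost or misassigned, and Stat5a also overlaps Stat3 by 72 exon bases on the other strand. Stat6, the STAT of interleukin 4, stood at 174, 137 and 192 CPM in WT and 141, 136 and 156 CPM in KO (log2 fold change -0.22, SE 0.20). Stat3, the STAT of interleukins 6, 10 and 21, stood at 257, 193 and 213 CPM in WT and 239, 224 and 248 CPM in KO (log2 fold change 0.10, SE 0.20). The groups overlapped for both.

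Of the per-kilobase level of the 5 STAT genes, Stat4 made up 1.98, 6.04 and 2.78% in WT and 10.8, 13.6 and 10.8% in KO. Stat6 held the largest mean share in both groups, 36.6 ± 2.69% in WT and 33.3 ± 2.71% in KO. Stat5b held 28.8 ± 1.49% in WT and 22.5 ± 4.13% in KO, and Stat5a 8.55 ± 0.557% and 7.09 ± 0.243% (SD, n = 3). For both Stat5 genes every KO share was below every WT share. Stat3 went the other way, with 22.4 ± 1.84% in WT and 25.4 ± 2.61% in KO, and its groups overlapped. Shares of one whole are not independent of each other.

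**Figure D3:**
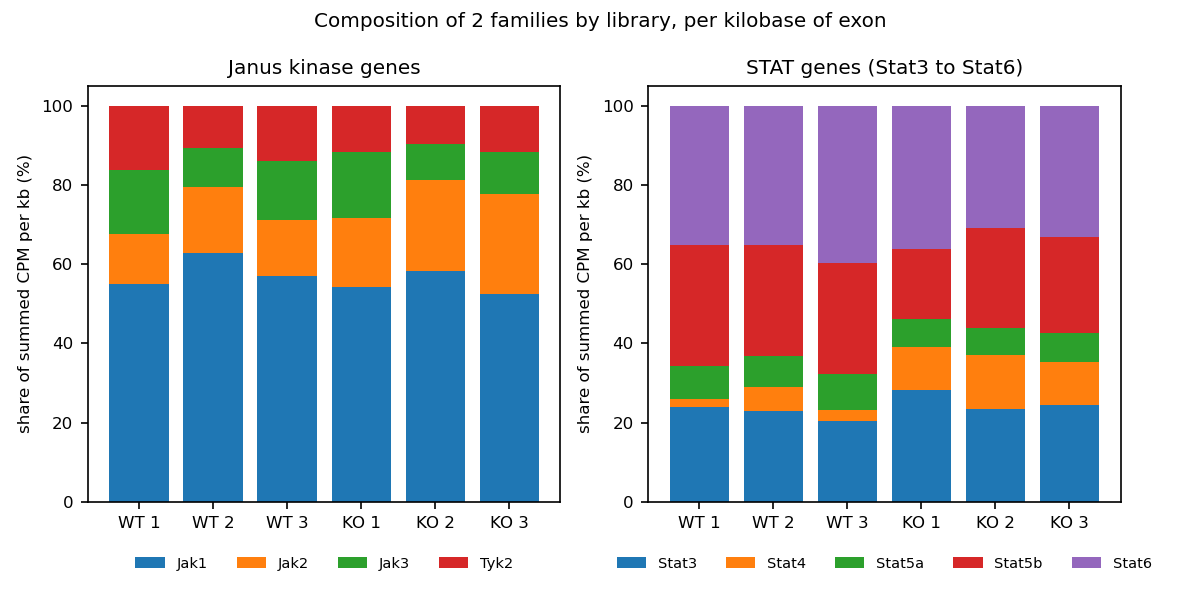
Share of each gene in the summed CPM per kilobase of exon of the 4 Janus kinase genes (left) and of Stat3 to Stat6 (right), as stacked bars in percent for each of the 6 libraries. The Stat4 band spans 1.98 to 6.04% in WT and 10.8 to 13.6% in KO, and the Jak2 band 12.6 to 16.7% and 17.5 to 25.2%.

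The feedback inhibitors differed widely in level. Socs2, a STAT5 target gene that restrains growth hormone and cytokine signals, stood at 1.05, 0.976 and 0.934 CPM in WT and 2.58, 2.75 and 4.28 CPM in KO, on 3 to 5 counts per WT library. The WT libraries were nearly equal and all KO libraries were higher (log2 fold change 1.68, SE 0.54, adjusted p = 0.284 by edgeR). Cish, whose promoter is shown above, had 1 count in WT and 3 in KO over all libraries. Both groups were at or under the floor of 3 counts. Socs3, the inhibitor of gp130 receptors, stood at 4.46, 0.781 and 2.80 CPM in WT and 11.3, 3.31 and 2.93 CPM in KO. KO 1 was 3.62 times the mean of the other KO libraries, which overlapped WT, and the log2 fold change of 1.15 (SE 0.71) was 0.23 without KO 1.

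Socs1, the inhibitor of interferon signals, stood at 26.5, 11.7 and 21.5 CPM in WT and 26.3, 19.9 and 12.2 CPM in KO, and the groups covered the same range (log2 fold change -0.02, SE 0.36). Socs4 stood at 15, 21.7 and 10.6 CPM in WT and 34.6, 24.5 and 20.1 CPM in KO, with WT 2 above KO 3 (log2 fold change 0.73, SE 0.31, adjusted p = 0.365 by edgeR). Socs7 stood at 46.7, 31.6 and 39.5 CPM in WT and 44.9, 32.8 and 37.7 CPM in KO, the latter within the WT range. The log2 fold change was 0.12 (SE 0.43) for Socs5 and 0.25 (SE 0.28) for Socs6.

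Of the PIAS genes, whose proteins attach SUMO to other proteins, none had groups that were apart. Pias4 came nearest, at 45.6, 32.2 and 46.4 CPM in WT and 31.9, 34.7 and 30.8 CPM in KO (log2 fold change -0.35, SE 0.22, adjusted p = 0.539 by edgeR). Pias3 stood at 19.7, 10.5 and 18.1 CPM in WT and 16.9, 12.1 and 14.6 CPM in KO, and Pias1 at 61.6, 70.7 and 61.0 CPM in WT and 84.7, 60.8 and 71.9 CPM in KO. KO lay within the WT range for Pias3, while KO 1 was above it for Pias1.

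**Figure D4:**
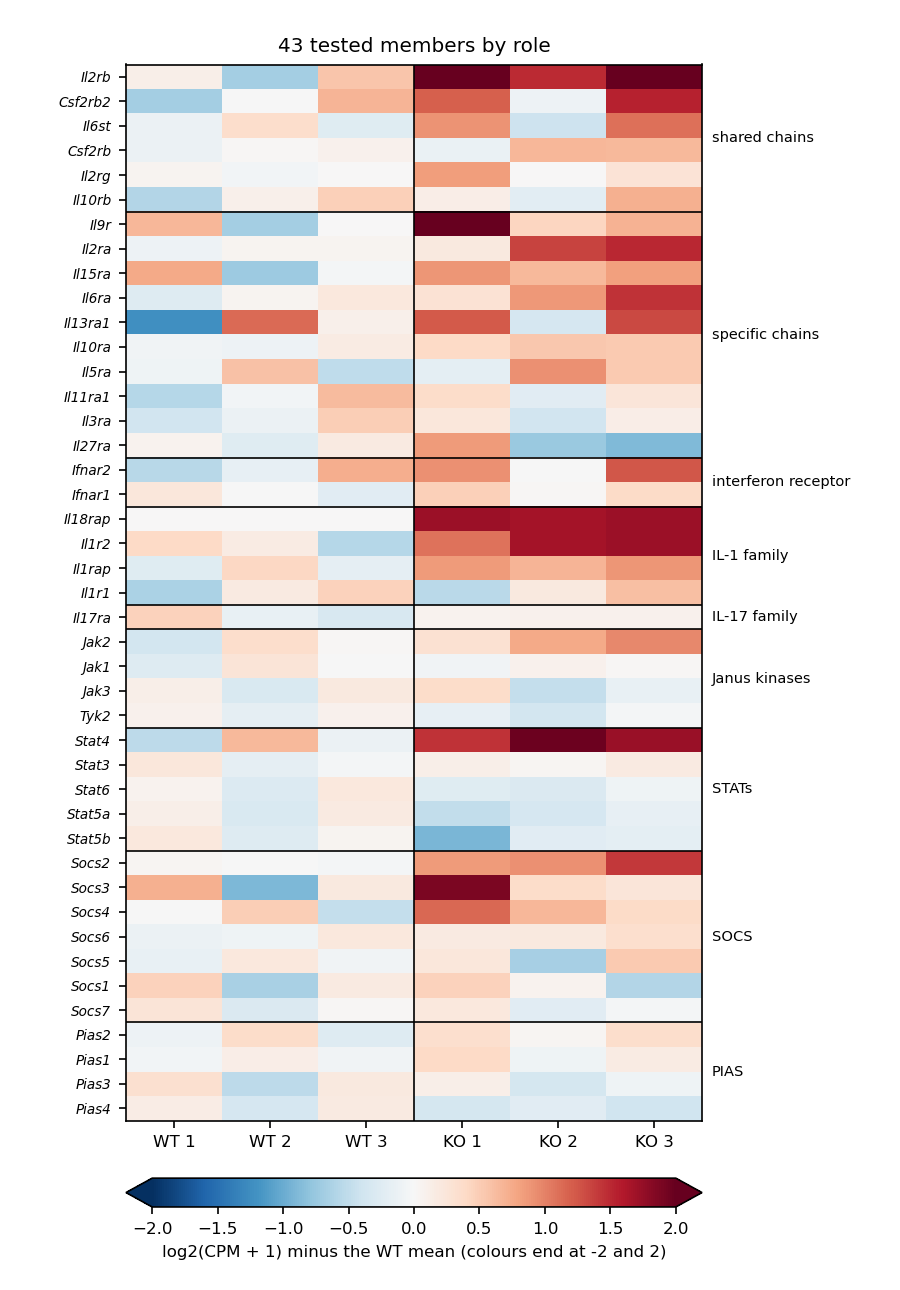
Colour shows log2(CPM + 1) minus the WT mean, saturated at -2 and 2, for the 43 tested genes (rows, grouped by role) in the 6 libraries (columns), red above and blue below the WT mean. Stat4, Il2rb and Il18rap are red in all 3 KO libraries, Il9r and Socs3 are deepest in KO 1, and the STAT rows other than Stat4 are pale but for Stat5b in KO 1.

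By role, all 6 shared chains had a log2 fold change above 0 (median 0.58), as did 8 of 10 tested specific chains (median 0.62), both interferon receptor chains and the 4 tested genes of the IL-1 family. Of those 4, Il18rap, Il1r2 and Il1r1 needed KO libraries to pass the filter, and Il1r1 had 2 WT and 2 KO libraries over its cutoff. Il1rn, the gene of the family with a lower mean CPM in KO, did not pass it, so the shared direction of the 4 is no result. Csf2rb2 among the shared chains and Il15ra, Il11ra1 and Il13ra1 among the specific chains also had fewer than 3 WT libraries over that cutoff. So did Socs2 and Socs3, and the counts above 0 of these roles lean upward by that choice. Among all tested genes, 51.3% were above 0. The STATs split 2 to 3 (median -0.22) and the PIAS genes 2 to 2 (median 0.01). The 4 kinases split 2 to 2 (median -0.03), with Jak1 and Jak3 so near 0 that another scaling turned their sign. The SOCS genes split 5 to 2 (median 0.25), and the 2 below 0, Socs1 and Socs7, were above it when scaled by library totals alone. With all libraries, TMM scaling and the low-count filter, no gene of any role passed by edgeR. Among the shared chains, Il10rb was below 0 without WT 1 (-0.06) and without KO 3 (-0.11).

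KO 1 and the other KO libraries differed by gene and in both directions. On the log2(CPM + 1) scale, KO 1 exceeded the mean of KO 2 and KO 3 by 3.17 for Il9r, 1.67 for Il27ra, 1.58 for Socs3, 0.70 for Il2rg and 0.68 for Jak3. It lay lower by a difference of -1.23 for Il2ra, -0.94 for Il1r1, -0.92 for Il5ra, -0.87 for Il6ra, -0.78 for Csf2rb and -0.71 for Stat5b. Il18rap and Stat3 differed by 0.02 each. Without KO 1 the log2 fold change rose to 1.92 for Il2ra, 1.25 for Il6ra, 0.837 for Jak2, 0.725 for Il5ra and 0.66 for Csf2rb. It fell to 0.494 for Socs4. KO 1 held the highest level of 10 of the 43 genes and KO 3 that of 15, where they held the highest level of 20.1% and 14.9% of all tested genes. These genes were named after their values were seen.

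**Figure D5:**
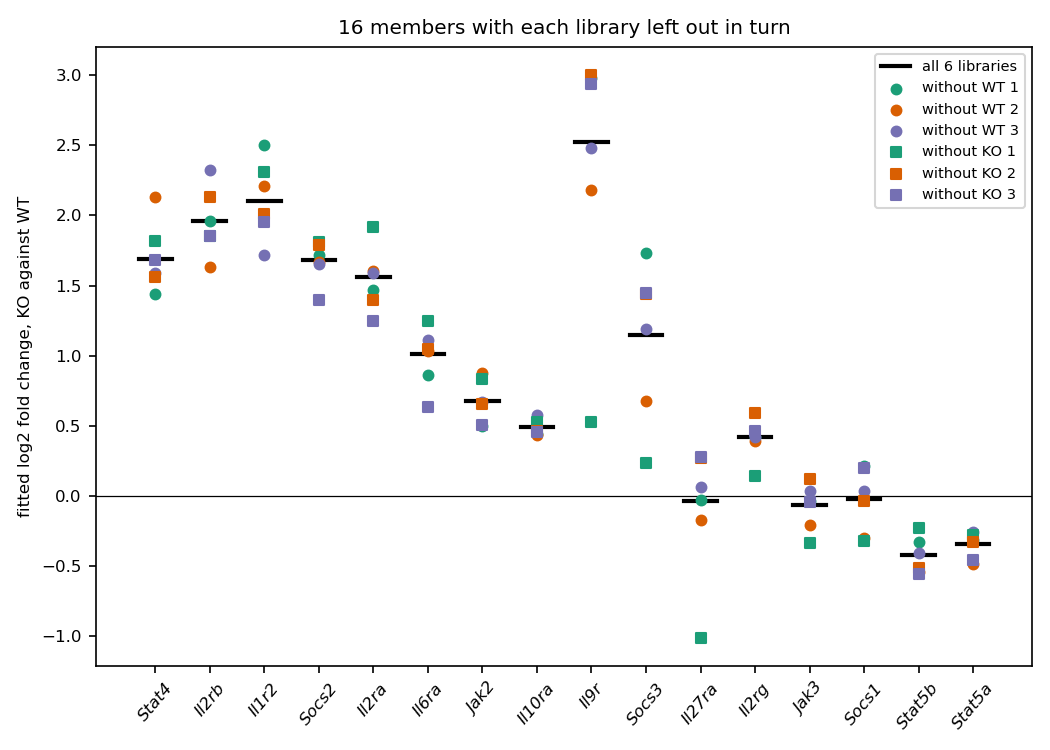
Fitted log2 fold change of KO against WT (vertical axis) for 16 of the genes, with all 6 libraries as a black bar and with each library left out in turn as coloured symbols. Stat4 ranges from 1.44 to 2.13 and Il2rb from 1.63 to 2.32, while without KO 1 Il9r stands at 0.53 and Il27ra at -1.01.

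Other genes of the pathway, taken from 4 fixed lists, also gave 0 genes that passed by edgeR with those settings. Of 30 cytokine genes 25 were in the table and 9 could be tested, 6 above and 3 below 0 (median 0.55). For Il33, an alarmin of the IL-1 family, the log2 fold change was 2.24 (SE 0.78) on 1 to 6 counts per WT library, and for Il12a, a subunit of interleukin 12, it was 1.31 (SE 0.54). Of 16 further receptor genes 13 were in the table and 8 could be tested, 6 above 0 (median 0.26). Ifnlr1, the specific chain of the interferon lambda receptor, which pairs with Il10rb, stood at 5.77, 3.71 and 3.73 CPM in WT and 32.1, 13.0 and 16.6 CPM in KO. All KO libraries were above all WT libraries, with KO 1 highest (log2 fold change 2.22, SE 0.40, adjusted p = 0.0916 by edgeR). Without KO 1 it was 1.74 (adjusted p = 0.103 by edgeR), and with the replicate number as a block 2.15 (adjusted p = 0.0298 by edgeR). Over all alternative fits the adjusted p of Ifnlr1 ran from 0.00115 by DESeq2 to 0.612 by edgeR without WT 3. Ifnlr1 also passed without a low-count filter and without KO 3, and did not pass by limma-voom (adjusted p = 0.341). Csf2ra, the GM-CSF receptor alpha chain that pairs with Csf2rb, had a log2 fold change of 0.75 (SE 0.29).

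Of 15 phosphatase, adaptor and other regulator genes of the pathway 7 were above 0 (median -0.02). Usp18, an inhibitor of the type I interferon receptor, stood at 5.51, 5.66 and 7.16 CPM in WT and 10.2, 10.6 and 15.4 CPM in KO (log2 fold change 0.99, SE 0.33, adjusted p = 0.284 by edgeR). Ptpn6, the phosphatase SHP-1, had a log2 fold change of -0.42 (SE 0.20). Of 17 tested STAT target genes 9 were above 0 (median 0.18), with Irf4 at 1.1 (SE 0.29) and Bcl2 at 2.47 (SE 0.67). Bcl2, a survival gene, stood at 2.10, 1.56 and 2.49 CPM in WT and 23.4, 5.43 and 4.85 CPM in KO. KO 1 was far above the other KO libraries, and without it the log2 fold change was 1.33 (adjusted p = 0.559 by edgeR). Over all tested genes 51.3% were above 0.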

How the data were processed

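Polyadenylated RNA of germinal centre B cells was sequenced for 3 WT and 3 KO mice, grouped by genotype label. The authors deposited 1 table of raw counts with a column for each mouse. The submitters' processing notes name CASAVA, STAR 2.5.2 and featureCounts 1.5.2, and mm10 as the build. The sources used here do not give the annotation, the strand setting or the treatment of shared reads. Depth was 3.39 to 5.52 M counts in WT and 12.3 to 14.3 M in KO. Library pairs within a group gave a chi-square of 14.4 to 50.9 per degree of freedom, so no library looked like a repeat of another.

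Counts were tested over the whole table with the robust quasi-likelihood test of edgeR 4.0.16 (R 4.3.3), two-sided, after filterByExpr by group and TMM scaling, with Benjamini-Hochberg adjustment and a threshold of 0.05. DESeq2 1.42.0 and limma-voom in limma 3.58.1 were alternatives, along with other scalings and filters, a replicate block, each library left out, and thinning to equal depth. A fit without WT 3 and KO 3 was added after the data were seen. The steps were tested on simulated data with known changes. The SE is the absolute log2 fold change divided by the square root of F. CPM were computed with TMM-scaled library sizes for single genes and with library totals for sums over lists and floors. Exon lengths, coordinates and overlaps came from GENCODE vM21, also on GRCm38, in which 97.8% of the symbols matched 1 gene.

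The genes described and the lists beside them were chosen with earlier results of these data known. Genes are given library by library by a rule: those that passed, the 8 with the smallest p in each direction, the 8 most abundant, the highest per kilobase of each role, every kinase and STAT, and both Csf2rb genes. From each pathway list described, the 2 with the smallest p are named; 1 further list is not reported here. Other genes given library by library, such as Il9r, Il27ra, Socs3, Il18r1 and Il1rl1, were added after their values were seen.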

Additional observations from a re-analysis of the deposited data

How the results depend on the processing

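Of the 43 tested cytokine receptor and JAK-STAT genes (the members), 0 passed by edgeR with TMM scaling, the low-count filter and no block. The count was 1 with library totals alone (Stat4), 3 without a low-count filter and 3 by DESeq2 (Stat4, Il2rb and Il18rap), 2 with the replicate number as a block (Stat4 and Il2rb) and 0 to 1 with 1 library left out (Stat4 without KO 1). Over all genes 9 passed, against 18 with library totals alone, 93 without a filter, 122 by DESeq2, 2 by limma-voom, 21 with the replicate block, 1 without WT 3 and KO 3, and 1 to 24 with 1 library left out (leaving out WT 2 or WT 3 gave 1, KO 2 gave 3, KO 3 gave 18 and KO 1 gave 24). The cause of these differences was not tested. The median log2 fold change of the members stayed above 0 in all 16 alternatives, from 0.23 with the stricter filter to 0.49 without WT 3. Scaling by library totals alone moved the median of all genes from 0.01 to 0.13, and that of the members to 0.42. Same-numbered WT and KO libraries had deviations that correlated across genes by 0.32, -0.03 and 0.43, and WT 2 correlated best with KO 3 (0.10), so the numbers were not taken as pairs.

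Signs turned for members whose fold change was near 0. With library totals alone Il27ra stood at 0.0978, Il3ra at 0.109, Jak3 at 0.0609, Socs1 at 0.08 and Socs7 at 0.089. By limma-voom Il3ra stood at 0.00936, Socs1 at 0.0212 and Socs5 at -0.0311. Jak1 was at -0.0377 with DESeq2 size factors and -0.0378 by DESeq2. After thinning, Jak1 was at -0.00938 and Il27ra at 0.0963. Without WT 3 and KO 3, Il17ra was at -0.117, Il27ra at 0.398, Il3ra at 0.204, Jak1 at -0.0195, Jak3 at 0.0778, Socs1 at 0.278 and Socs5 at -0.241. With 1 library left out the log2 fold changes ran over these ranges: Ifnlr1 1.74 to 2.47, Il10rb -0.114 to 0.469, Il11ra1 -0.264 to 0.692, Il17ra -0.112 to 0.302, Il1r1 -0.306 to 0.493, Il27ra -1.01 to 0.275, Il3ra -0.24 to 0.275, Jak1 -0.131 to 0.135, Jak3 -0.337 to 0.122, Kdm1a -1.93 to -0.878, Pias3 -0.378 to 0.00481, Socs1 -0.318 to 0.211, Socs5 -0.209 to 0.434, Socs7 -0.167 to 0.0936, Stat4 1.44 to 2.13. WT depth limits the genes with few counts: 15 of the 58 could not be tested, with 1 to 171 counts in all.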
